A study of Mus musculus with 6 samples.

Results

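The genes described here are the G1 cyclins and their brakes: the D-type cyclins *Ccnd1*, *Ccnd2* and *Ccnd3*, the E-type cyclins *Ccne1* and *Ccne2*, and the cyclin-dependent kinase (CDK) inhibitors *Cdkn1b*, *Cdkn1c*, *Cdkn2a*, *Cdkn2b* and *Cdkn2c*. They were taken by name, not by their values, although earlier results of these data were known. All 10 were found among the 41388 genes of the count tables. RNA-seq was performed on chondrocytes from the femoral head cartilage of male mice aged 21 days, kept for 2 days in culture with no treatment. Cells of 3 periostin knockout mice (Postn-/-) were compared with cells of 3 wild-type mice (wt), all on a B6/129 background. The knockout mice were homozygous for the constitutive tm1Jmol null allele of *Postn*, so the loss was not restricted to cartilage, and the question addressed was which transcripts differ at baseline between the genotypes.

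A cell in G1 commits to division through these genes. Mitogens induce D-type cyclins, which activate CDK4 and CDK6, and these kinases phosphorylate the retinoblastoma protein and release E2F transcription factors. E2F factors in turn induce the E-type cyclins, which activate CDK2 and drive entry into S phase. INK4 inhibitors, among them *Cdkn2a*, *Cdkn2b* and *Cdkn2c*, bind CDK4 and CDK6, and CIP/KIP inhibitors, among them *Cdkn1b*, coding for p27, and *Cdkn1c*, coding for p57, bind cyclin-CDK complexes more broadly. In growth cartilage, cyclin D1 is known as a target of mitogenic signals in proliferating chondrocytes and p57 as an inhibitor that accompanies their exit from the cycle.

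No member passed the test between the genotypes after correction. Among the 9 tested members, with all 6 samples, the largest fold changes were those of *Ccne1*, *Ccnd1* and *Ccne2*, all lower in Postn-/-. Of the 10 members, 9 passed the filter on low counts (above 1 CPM, counts scaled to a fixed library total, in at least 2 samples), and 0 of the 9 had a p of at most 0.05 after Benjamini-Hochberg adjustment over 14533 genes by the quasi-likelihood test of edgeR, a threshold that 0.0138% of the tested genes passed. At an unadjusted p of at most 0.05 there was 1 member, *Cdkn1b*, lower in Postn-/-, where 6.30% of all tested genes passed in either direction and 2.35% passed on the lower side. By DESeq2's Wald test 0 members passed the adjusted threshold and 2 the unadjusted one. In limma's fit with surrogate variables, the model of the study's methods, 0 and 4 members did. The adjusted p of these 4 was 0.283 to 0.291 by limma. The shares of all tested genes at these thresholds are those of edgeR's test. None is given for the other fits, so their counts cannot be set against all genes. The genotypes did not overlap for 2 of the 9, *Cdkn1b* and *Ccnd3*, beside 13.6% of all tested genes. The fold changes of 7 of the 9 were negative (lower in Postn-/-), as were 49.2% of those of all tested genes, and their median was −0.34 on the log2 scale beside 0.0042 for all tested genes. Without wt replicate 1 the members' median log2 fold change was −0.07. This library held the highest value of 6 of the 9, so leaving it out lowers the wt mean of those genes. The median is not given without any other sample. In edgeR's test 0 members passed the unadjusted threshold without wt replicate 1 and 0 without Postn-/- replicate 3. With each sample left out in turn the number was 0 to 3.

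The sequencing was deep for all but the rarest member. Counts summed to between 20587640 and 26572260 per sample, so that 3 counts corresponded to 0.113 to 0.146 CPM, a floor for counting error only. Chondrocyte identity was clear in every library: all 8 chondrocyte markers were detected, and *Col2a1*, coding for the main cartilage collagen, lay between 8271 and 18081 CPM after TMM normalization (scaling for library size and composition, used for every CPM below). The summed markers ranged over 30187 to 37846 CPM in Postn-/- and 21104 to 34647 in wt, lowest in wt replicate 1. Of other cell types, fibroblast markers summed to 1572 to 3185 CPM in Postn-/- and 2058 to 3284 in wt, and osteoblast markers to 980 to 1859 and 757 to 3394. Osteoclast markers summed to 346 to 456 and 314 to 415 CPM, nearly all of it *Ctsk*, and adipocyte markers to 23.9 to 257 and 21.3 to 148, nearly all of it *Fabp4*. Blood and immune markers (26.8 to 48.1 and 17.8 to 31.8 CPM), endothelial markers (4.64 to 6.43 and 3.27 to 6.66) and skeletal muscle markers (3.62 to 6.02 and 5.54 to 16.8) were low. Under 1 CPM in every sample were 2 of the 6 blood and immune markers (*Hbb-bs* and *Hba-a1*), 1 of 3 endothelial (*Cdh5*), 2 of 3 adipocyte (*Adipoq* and *Plin1*), 1 of 3 muscle (*Ckm*), 1 of 3 osteoclast (*Calcr*), 1 of 5 fibroblast (*Thy1*) and 0 of 4 osteoblast markers. Other markers of the same lists were detected, among them *Col1a1* at 482 to 2059 CPM, *Dcn* at 981 to 2103, *Acp5* at 10.6 to 25.2, *Lyz2* at 5.81 to 27.5, *Cd68* at 5.29 to 22.9 and *Pecam1* at 2.22 to 4.60. The targeted gene *Postn* was counted at 4.66, 4.27 and 5.67 CPM in knockout and at 10.1, 10.3 and 6.90 CPM in wt cells, and the genotypes did not overlap (log2 fold change −0.91, SE 0.22, adjusted p = 0.717 by edgeR, 0.00362 unadjusted). Its reads were counted over the whole gene, so any transcript from outside the disrupted part would be included. Where in the gene the reads lay was not tested. In bulk samples, fewer cells expressing a gene and less RNA per cell cannot be told apart.

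Compared per length, the members spanned a wide range in these cells. RPKM (reads per kilobase of exon and per one-millionth of the library's reads) of *Ccnd2* was 263, 240.3 and 280 in knockout cells (replicates 1 to 3, the order used throughout) against 346, 232 and 221 in wt cells. *Ccnd2* was thus the most abundant member in each of the 6 samples, and its mean RPKM of 264 ± 45.5 (SD, n = 6) was 18.0-fold that of *Ccnd1*, the next. *Ccnd1* had a mean RPKM of 14.7 ± 5.62, *Cdkn2c* of 9.91 ± 1.45, *Ccne2* of 9.90 ± 3.53, *Ccnd3* of 5.62 ± 0.930, *Cdkn1b* of 5.57 ± 1.12, *Cdkn1c* of 4.93 ± 1.71, *Cdkn2b* of 3.88 ± 1.02 and *Ccne1* of 2.44 ± 0.841 (SD, n = 6 each). Every neighbouring pair from *Ccnd1* down to *Ccne1* had overlapping ranges over the 6 samples. Within a sample, *Ccnd1* was above *Cdkn2c*, *Ccne2* above *Ccnd3* and *Cdkn2b* above *Ccne1* in 6 of 6 samples, although their ranges overlapped. *Cdkn2a* was last at 0.324 ± 0.180 RPKM, and all its values lay below the lowest value of *Ccne1*.

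**Figure D1:**
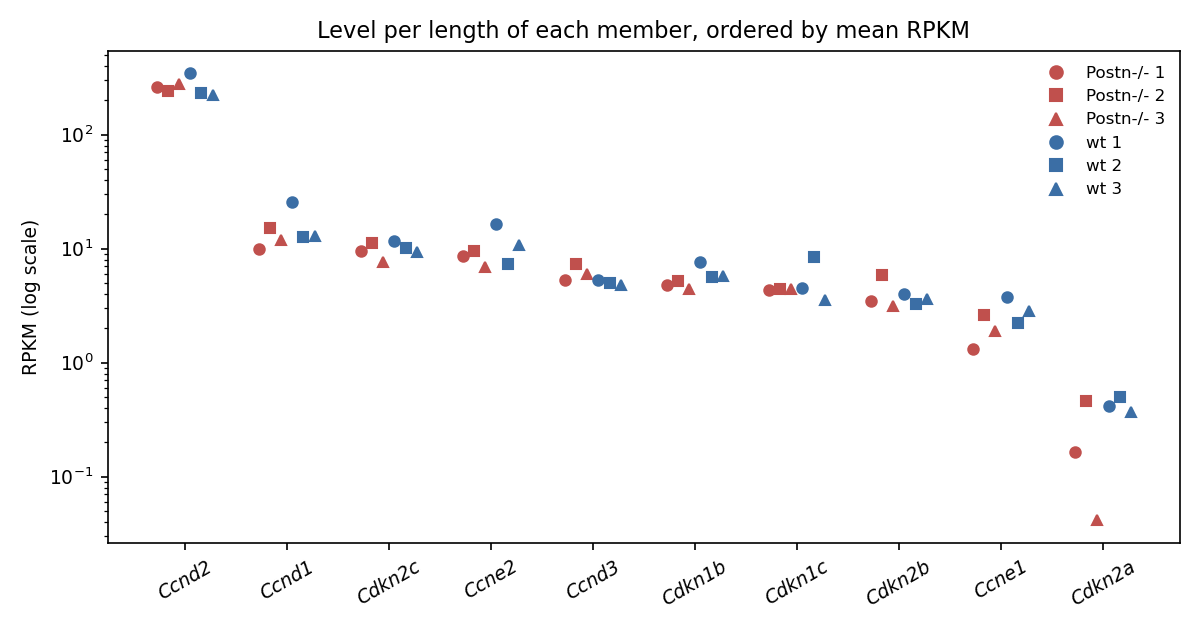
RPKM on a log axis for each of the 10 genes, ordered by the mean, with 1 point per sample (red, Postn-/-; blue, wt; the marker shape gives the replicate number). *Ccnd2* lies between 221 and 346 RPKM, apart from all others, and *Cdkn2a* between 0.0414 and 0.494 RPKM at the bottom.

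Of the summed RPKM of the D-type cyclins, *Ccnd2* made up 94.5%, 91.5% and 94.0% in the Postn-/- samples and 91.8%, 92.9% and 92.6% in the wt samples. *Ccnd1* made up 3.57% to 6.81% and *Ccnd3* 1.41% to 2.79%. Within the E-type cyclins, *Ccne2* made up 76.4% to 86.7%, and of the summed RPKM of *Cdkn2a*, *Cdkn2b* and *Cdkn2c* the last made up 63.8% to 73.0%. *Cdkn2a* made up 0.384% to 3.58% of that sum, which leaves out the INK4 inhibitor *Cdkn2d*, counted at 24.6 to 50.6 CPM. *Ccnd2* and *Ccne2* were thus the leading D-type and E-type cyclins in all 6 libraries. Of the sum of *Cdkn1b* and *Cdkn1c* alone, *Cdkn1b* made up 50.3% to 62.6% in 5 libraries and 40.5% in wt replicate 2, where *Cdkn1c* made up 59.5%. This sum leaves out the other CIP/KIP gene, *Cdkn1a*, counted at 358 to 786 CPM. The exon lengths in the files sum all annotated exons, which bears most on *Ccnd3*, with 8775 bases against 2113 for its longest coding transcript. With coding transcript lengths *Ccnd3* was at 23.4 RPKM and next in the order after *Ccnd2*, which was at 237. The lead of *Ccnd2* was thus smaller than with the exon lengths, and its share was 82.5% to 88.1%.

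Among the D-type cyclins, *Ccnd2* (ENSMUSG00000000184, GRCm38, chromosome 6, from 127125162 to 127152193 on the minus strand) was at 1552, 1355 and 1565 CPM in Postn-/- cells against 2013, 1342 and 1248 CPM in wt cells. The genotypes overlapped, and the highest and the lowest sample were both wt. Expressed as Postn-/- over wt, here and below, the log2 fold change was −0.04 (95% interval −0.50 to 0.42, adjusted p = 0.965 from edgeR's test). An interval this wide covers a fold change from 0.706 to 1.34, so these samples cannot show a difference within that range. The sign of *Ccnd2* was not stable: without wt replicate 1 the log2 fold change was 0.20 (95% interval −0.13 to 0.54).

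*Ccnd1* (ENSMUSG00000070348, chromosome 7, 144929931 to 144939925, minus strand), coding for the D-type cyclin most closely tied to mitogen signals, was at 39.4, 57.4 and 44.3 CPM in Postn-/- cells against 100.4, 49.5 and 49.0 CPM in wt cells. Here a single wt sample stood out, at 2.04 times the mean of the other wt samples, while those lay inside the Postn-/- range. The log2 fold change was −0.50 (SE 0.29, 95% interval −1.17 to 0.18, adjusted p = 0.719 from edgeR's test). Without wt replicate 1 it was −0.07 (SE 0.17, adjusted p = 0.945).

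*Ccnd3* (ENSMUSG00000034165, chromosome 17, 47505051 to 47599691, plus strand) ran the other way. Its values were 47.7, 63.6 and 51.9 CPM in Postn-/- and 47.6, 44.7 and 41.7 in wt, so that the genotypes did not overlap, although Postn-/- replicate 1 and wt replicate 1 were almost equal. Of all tested genes 7.03% were higher in this sense. *Ccnd3* had a log2 fold change of 0.28 (SE 0.13, 95% interval −0.02 to 0.59, adjusted p = 0.717 by edgeR, 0.0631 unadjusted). Leaving out Postn-/- replicate 2, the highest sample, lowered it to 0.16 (adjusted p = 0.783 by edgeR, 0.245 unadjusted). Without Postn-/- replicate 1 it was 0.37 (adjusted p = 0.772, 0.0339 unadjusted), and without wt replicate 1 it was 0.33.

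**Figure D2:**
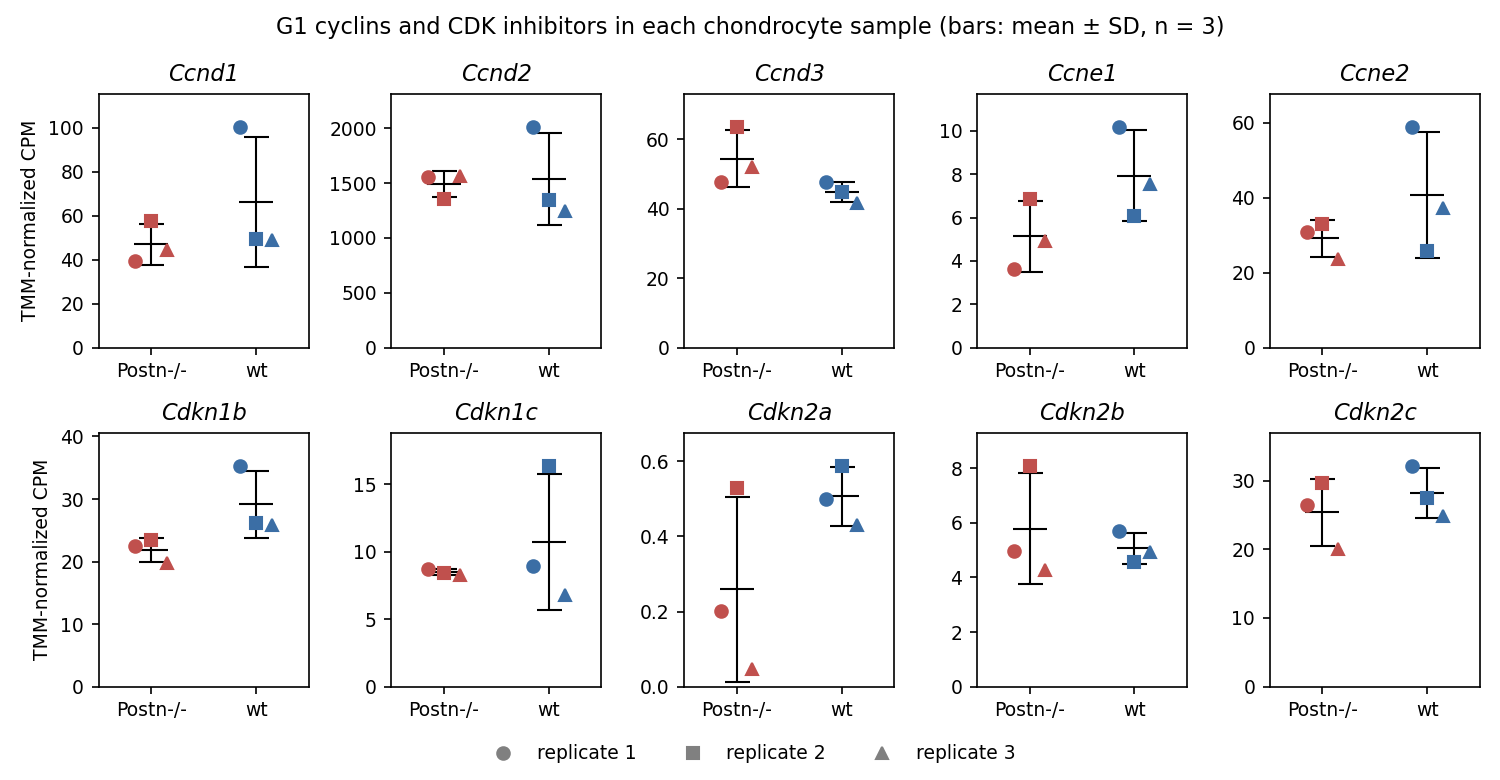
TMM-normalized CPM of each of the 10 genes in each sample on a linear axis from 0 (red, Postn-/-; blue, wt; marker shape gives the replicate; bars show mean ± SD, n = 3). In the panels of *Ccnd1*, *Ccnd2*, *Ccne1*, *Ccne2*, *Cdkn1b* and *Cdkn2c* the highest point is wt replicate 1, and only for *Cdkn1b* and *Ccnd3* do the genotypes not overlap.

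Among the E-type cyclins, which bring CDK2 into play at the end of G1, *Ccne1* (ENSMUSG00000002068, chromosome 7, 38097984 to 38107534, minus strand) had the largest fold change of all tested members. It was at 3.62, 6.87 and 4.91 CPM in Postn-/- cells against 10.2, 6.06 and 7.52 CPM in wt cells. Postn-/- replicate 2 lay above wt replicate 2, so the genotypes overlapped. Its log2 fold change was −0.63 (SE 0.29, 95% interval −1.30 to 0.05, adjusted p = 0.717 by edgeR, 0.0643 unadjusted). It was −0.40 without wt replicate 1 but −0.90 without Postn-/- replicate 2 (adjusted p = 0.611 by edgeR, 0.0186 unadjusted) and −0.79 without wt replicate 2 (adjusted p = 0.568, 0.0350 unadjusted), the pair of samples in which the genotypes overlapped.

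*Ccne2* (ENSMUSG00000028212, chromosome 4, 11191351 to 11204779, plus strand) lay at 30.9, 32.9 and 23.5 CPM in Postn-/- cells against 58.9, 25.7 and 37.2 CPM in wt cells. As with *Ccnd1*, wt replicate 1 was the highest sample, and wt replicate 2 was lower than 2 of the 3 Postn-/- samples. The log2 fold change was −0.48 (SE 0.28, 95% interval −1.14 to 0.18, adjusted p = 0.720 from edgeR's test), and without wt replicate 1 it was −0.11 (95% interval −0.60 to 0.37). Without wt replicate 2, the lowest wt sample, it was −0.72 (adjusted p = 0.567 by edgeR, 0.0148 unadjusted).

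The CIP/KIP inhibitor *Cdkn1b* (ENSMUSG00000003031, chromosome 6, 134920401 to 134925513, plus strand) codes for p27, which holds cyclin E-CDK2 complexes inactive in resting cells. It was at 22.4, 23.5 and 19.8 CPM in Postn-/- (21.9 ± 1.90, SD, n = 3) and at 35.3, 26.2 and 25.9 CPM in wt (29.1 ± 5.36). The genotypes did not overlap, with knockout cells lower, as held for 6.57% of all tested genes in this direction. For *Cdkn1b* the log2 fold change was −0.41 (SE 0.16, 95% interval −0.77 to −0.05, adjusted p = 0.717 by edgeR, 0.0298 unadjusted). Over the 15 alternative analyses it ran from −0.49 to −0.25 with adjusted p between 0.291 and 0.983. The difference did not pass the unadjusted threshold in 3 of them, which each left out 1 sample: Postn-/- replicate 1 (unadjusted p = 0.0594 from edgeR's test), Postn-/- replicate 3 (0.101) and wt replicate 1 (0.0885).

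*Cdkn1c* (ENSMUSG00000037664, chromosome 7, 143458339 to 143461050, minus strand), an imprinted gene coding for p57, was at 8.72, 8.42 and 8.29 CPM in Postn-/- cells against 8.96, 16.4 and 6.80 CPM in wt cells. The Postn-/- samples were nearly alike (8.48 ± 0.220, n = 3), and the wt samples held both the lowest and the highest value (10.7 ± 5.02, n = 3). Its log2 fold change was −0.34 (SE 0.31, 95% interval −1.04 to 0.37, adjusted p = 0.791 from edgeR's test) and turned to 0.10 without wt replicate 2, while it was −0.58 without wt replicate 3. In wt replicate 2 the 4 osteoblast markers summed to 3394 CPM, against 757 to 1859 in the other 5 libraries, and their part in the value of *Cdkn1c* was not tested.

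**Figure D3:**
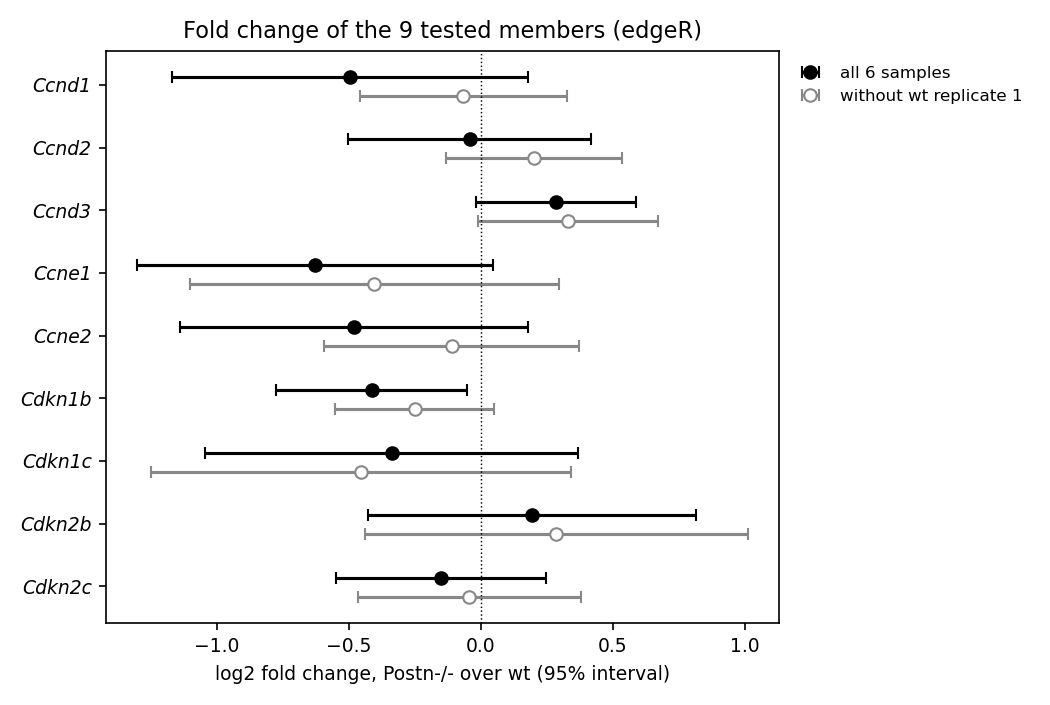
Log2 fold change, Postn-/- over wt, with its 95% interval from edgeR's fit for the 9 tested genes, with all 6 samples (black) and without wt replicate 1 (grey, open). With all samples only the interval of *Cdkn1b* leaves out 0, at −0.77 to −0.05, and without wt replicate 1 it runs from −0.55 to 0.05.

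Of the INK4 inhibitors, *Cdkn2c* (ENSMUSG00000028551, chromosome 4, 109660876 to 109667189, minus strand), coding for p18, was at 26.5, 29.6 and 20.1 CPM in Postn-/- cells against 32.2, 27.5 and 24.9 CPM in wt cells. The ranges overlapped, and the log2 fold change was −0.15 (95% interval −0.55 to 0.25, adjusted p = 0.830 from edgeR's test). This value depended on single libraries, being −0.0096 without Postn-/- replicate 3, −0.04 without wt replicate 1, −0.28 without Postn-/- replicate 2 and −0.23 without wt replicate 3. *Cdkn2b* (ENSMUSG00000073802, chromosome 4, 89306299 to 89311039, minus strand), coding for p15, an inhibitor known for its induction by TGF-beta, was at 4.98, 8.09 and 4.29 CPM in Postn-/- cells against 5.69, 4.57 and 4.94 CPM in wt cells. Postn-/- replicate 2 was the highest and Postn-/- replicate 3 the lowest sample. The log2 fold change of 0.19 (95% interval −0.43 to 0.82, adjusted p = 0.861 from edgeR's test) changed sign to −0.13 without Postn-/- replicate 2 and was 0.29 and 0.37 without Postn-/- replicates 1 and 3 and 0.12 without wt replicate 2.

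*Cdkn2a* (ENSMUSG00000044303, chromosome 4, 89274471 to 89294653, minus strand) was close to the counting floor. Postn-/- cells had 5, 13 and 1 counted reads and wt cells 13, 13 and 9. The genotypes shared the value of 13 reads, and Postn-/- replicate 3 lay below the floor of 3 counts. Summed, 19 reads in Postn-/- stood against 35 in wt, a ratio of 0.535 per library total, with a 95% interval of 0.289 to 0.961 (exact binomial) that covers counting error only and not the spread between mice. The gene did not pass the filter on low counts and so has no test among the others. Without that filter its log2 fold change was −0.94 (95% interval −2.12 to 0.23, adjusted p = 0.833 by edgeR, 0.110 unadjusted).

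The *Cdkn2a* locus is shown because its reads cannot be assigned to a product. It codes for p19Arf, from the upstream start, and for p16, a CDK4 and CDK6 inhibitor, from the downstream start, and the files hold 1 count for the whole gene. RefSeq promoters on GRCm38.p6 were at hand for 6 of the 10 members, and the 250 bases before each start were searched on both strands for E2F motifs (TTTCCCGC, TTTCGCGC, TTTGCCGC or TTTGGCGC) and for the cyclic AMP response element (CRE, TGACGTCA, which reads the same on both strands). Capitals mark a match.
Cdkn2a upstream start, chr4:89294620-89294869, minus strand: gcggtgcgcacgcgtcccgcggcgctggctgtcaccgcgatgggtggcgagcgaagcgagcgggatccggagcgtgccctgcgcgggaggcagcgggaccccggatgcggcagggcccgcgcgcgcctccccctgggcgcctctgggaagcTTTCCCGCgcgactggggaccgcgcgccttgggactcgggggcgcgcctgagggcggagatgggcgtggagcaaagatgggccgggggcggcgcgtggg
Cdkn2a downstream start, chr4:89282193-89282442, minus strand: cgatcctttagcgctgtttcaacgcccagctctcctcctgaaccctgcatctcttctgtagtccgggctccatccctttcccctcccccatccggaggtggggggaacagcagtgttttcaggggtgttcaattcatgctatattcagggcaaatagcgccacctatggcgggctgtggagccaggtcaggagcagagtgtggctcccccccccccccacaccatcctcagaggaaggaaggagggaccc
Cdkn2b, chr4:89311033-89311282, minus strand: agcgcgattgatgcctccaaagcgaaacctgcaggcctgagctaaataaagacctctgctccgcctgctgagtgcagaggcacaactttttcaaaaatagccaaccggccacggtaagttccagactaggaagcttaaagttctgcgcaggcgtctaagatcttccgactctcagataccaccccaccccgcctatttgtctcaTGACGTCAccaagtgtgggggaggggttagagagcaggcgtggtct

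The upstream *Cdkn2a* window held 1 E2F match, at bases −99 to −92 before the start, and the downstream window held none of these letters. The *Cdkn2b* window held 1 CRE match at bases −46 to −39. Among 32851 windows of the same length, 1.86% held an E2F match and 1.55% a CRE match. The windows of *Cdkn1b* and *Ccne1* follow, as the tested members with the smallest p and with the largest fold change. Neither held these letters, nor did those of *Ccnd3* and *Cdkn2c*.
Cdkn1b, chr6:134920151-134920400, plus strand: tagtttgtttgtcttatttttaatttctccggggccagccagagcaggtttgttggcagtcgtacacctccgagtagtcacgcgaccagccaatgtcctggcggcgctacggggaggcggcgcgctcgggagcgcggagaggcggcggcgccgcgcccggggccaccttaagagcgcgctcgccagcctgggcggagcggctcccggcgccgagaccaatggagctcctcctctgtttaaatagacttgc
Ccne1, chr7:38107491-38107740, minus strand: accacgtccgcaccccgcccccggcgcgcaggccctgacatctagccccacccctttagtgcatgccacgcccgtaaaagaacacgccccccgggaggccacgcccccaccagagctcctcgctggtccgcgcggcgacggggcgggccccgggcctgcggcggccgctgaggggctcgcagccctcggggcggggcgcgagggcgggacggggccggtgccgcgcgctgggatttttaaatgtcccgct

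Several members share exons with another gene on the opposite strand. The paper describes adapters ligated to fragmented double-stranded cDNA and names no step that keeps the strand. Whether counting used strand is not stated. Of the 50-base words in its transcripts, *Ccnd1* shares 21.6% with *LTO1*, *Ccne2* 14.4% with *Ints8*, *Cdkn1c* 24.9% with the antisense gene *Gm44732*, and *Ccnd2* 6.31% with antisense genes. *Ccnd3* shares 5.39% with many genes, among them its pseudogene and the opposite-strand gene *Bysl*, which was counted. Where the partner was counted too, as for *LTO1* and *Ints8*, reads there may have been dropped as ambiguous or assigned to it. *Gm44732* was not among the counted genes. In a library that keeps no strand, its reads over shared exons could add to *Cdkn1c* under any counting setting. For *Ccne1*, *Cdkn1b*, *Cdkn2a*, *Cdkn2b* and *Cdkn2c* the share was 0%.

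The SD of CPM was larger within wt for 6 of the 10 members and within Postn-/- for *Ccnd3*, *Cdkn2a*, *Cdkn2b* and *Cdkn2c*. In wt replicate 1 were the highest values of 6 of the 9 tested members, *Ccnd1*, *Ccnd2*, *Ccne1*, *Ccne2*, *Cdkn1b* and *Cdkn2c*, where 24.6% of all tested genes had their highest value in this library. These are 4 of the 5 cyclins and 2 of the 4 tested inhibitors. The other members were highest elsewhere, *Ccnd3* and *Cdkn2b* in Postn-/- replicate 2 and *Cdkn1c* in wt replicate 2. The list of 13 S phase entry and proliferation genes, which holds E2F-driven replication genes such as *Mcm5*, *Cdc6* and *Tyms*, was also highest there for 11 of its genes. Its summed level was 503, 851 and 420 CPM in Postn-/- and 1381, 611 and 675 CPM in wt. All 13 had a negative log2 fold change with a median of −0.56, but 0 passed either threshold of edgeR's test, and without wt replicate 1 the median was −0.13. Chondrocyte markers were at their lowest sum in this library, 21104 CPM, and the part of these differences in the members' values was not tested.

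**Figure D4:**
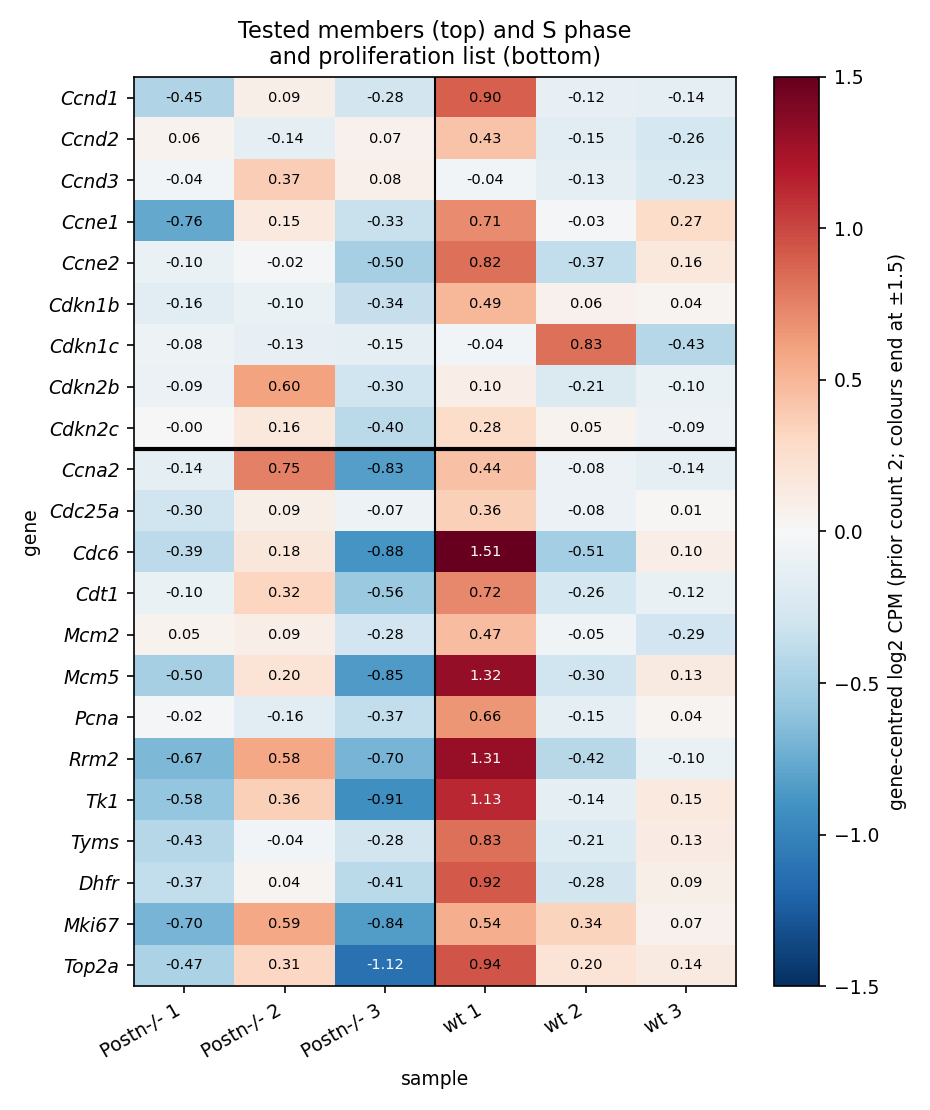
Gene-centred log2 CPM (each gene's mean over the 6 samples set to 0, prior count 2) of the 9 tested members above the thick line and of 13 S phase and proliferation genes below it, by sample. The column of wt replicate 1 holds the highest value for 6 of the 9 and 11 of the 13 genes, with *Cdc6* the largest at 1.51, and *Cdkn1c* has its highest value, 0.83, in wt replicate 2.

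The partners of these cyclins in the G1 pathway were tested in the same fit. Of 16 G1 kinases, pocket proteins and E2F factors, 0 passed the adjusted threshold, 2 passed the unadjusted threshold on the higher side (3.95% of all tested genes did) and 0 on the lower side, with a median log2 fold change of −0.12. Without wt replicate 1 this median was 0.0064. The 2 genes past the unadjusted threshold were pocket proteins, which bind E2F factors and restrain their targets. For *Rbl1*, the other pocket protein of the list, the genotypes overlapped (log2 fold change −0.04, adjusted p = 0.968 by edgeR). *Rbl2*, coding for p130, the pocket protein of resting cells, was at 22.2, 20.4 and 21.3 CPM in Postn-/- cells against 15.5, 14.3 and 15.0 CPM in wt cells, with no overlap and little spread within either genotype. Its log2 fold change was 0.51 (SE 0.12, adjusted p = 0.717 by edgeR, 0.00242 unadjusted) and 0.54 without wt replicate 1. *Rb1* was at 9.52, 7.28 and 8.43 CPM in Postn-/- cells against 6.73, 5.88 and 5.85 CPM in wt cells, again with no overlap (log2 fold change 0.45, SE 0.18, adjusted p = 0.717 by edgeR, 0.0358 unadjusted). The unadjusted p of *Rb1* rose above 0.05 in 5 of the 15 alternatives, those without Postn-/- replicate 1 (0.124) or 3 (0.0838), without wt replicate 2 (0.0816) or 3 (0.0988), and without the filter on low counts (0.0656), while that of *Rbl2* did in 0 of the 15. Neither passed the correction for all genes. In this list the genotypes did not overlap for 3 genes on the higher side, with *E2f6* the other one, and for 2 on the lower side, *Cdk4* and *E2f2*. Of all tested genes 7.03% were higher and 6.57% lower in this sense.

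Among 8 genes for the turnover of G1 cyclins and p27, 0 passed the adjusted threshold and 1 the unadjusted one, on the lower side, which 2.35% of all tested genes passed; the median log2 fold change was 0.02. This was *Skp2*, the ubiquitin ligase subunit that marks p27 for degradation, at 15.8, 17.8 and 14.2 CPM in Postn-/- cells against 28.2, 18.0 and 20.5 CPM in wt cells. It was lower in every Postn-/- sample than in any wt sample, as were *Cdkn1b* and 6.57% of all tested genes. The log2 fold change of *Skp2* was −0.48 (SE 0.19, adjusted p = 0.717 by edgeR, 0.0356 unadjusted) and −0.27 without wt replicate 1. Its unadjusted p rose above 0.05 on leaving out Postn-/- replicate 1 (0.0798) or 3 (0.111) or wt replicate 1 (0.118) or 3 (0.0520), where the edgeR adjusted p was 0.724 to 0.983. Of 12 Polycomb and FoxO regulators of the inhibitor genes (median 0.02), of 3 genes of the Arf branch (*Trp53*, *Mdm2* and *Npm1*) and of 2 other CDK inhibitors (*Cdkn1a* and *Cdkn2d*), 0 passed either threshold in the edgeR fit. The smallest p of each list belonged to *Foxo1* in the first of these (log2 fold change 0.34, adjusted p = 0.717 by edgeR, 0.0702 unadjusted), to *Mdm2* in the second (0.53, adjusted p = 0.717, 0.0725 unadjusted) and to *Cdkn2d* in the third (−0.32, adjusted p = 0.769, 0.260 unadjusted). In the S phase list it belonged to *Tyms* (−0.56, adjusted p = 0.717, 0.0601 unadjusted by edgeR). These depended on single libraries. Without wt replicate 1 *Foxo1* was at 0.51 (adjusted p = 0.833 by edgeR, 0.00648 unadjusted), and it passed the unadjusted threshold in 5 of the 15 alternatives. *Mdm2* was at 0.24 without Postn-/- replicate 3 and at 0.80 without Postn-/- replicate 1 (adjusted p = 0.772 by edgeR, 0.00114 unadjusted). *Tyms* was at −0.21 without wt replicate 1 and at −0.76 without wt replicate 2 (adjusted p = 0.567 by edgeR, 0.00991 unadjusted), and *Cdkn2d* at 0.072 and −0.50 without the same libraries. The unadjusted threshold was passed by *Tyms* in 4 of the 15 alternatives, among them limma's fit with surrogate variables (−0.42, adjusted p = 0.235 by limma, 0.00175 unadjusted).

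The genes whose pattern over the 6 samples was most like that of *Cdkn1b* were sought by the root mean square difference of gene-centred log2 CPM. These were *Ints7* (0.0196), *Rfc2* (0.0607) and *Tuba1b* (0.0617), where the median over 14532 genes was 0.349. *Ints7*, a subunit of the Integrator complex, was at 57.6, 58.4 and 48.7 CPM in Postn-/- cells against 87.9, 66.3 and 65.3 CPM in wt cells, which is the same order of samples as *Cdkn1b*. For *Ccne1*, the member with the largest SD of log2 CPM over the samples (0.509), the nearest were the mitotic kinesin *Kif18a* (0.117), *BC055324* (0.127) and the DNA polymerase gene *Polq* (0.134), with a median over all genes of 0.523. Over 6 samples and 14532 genes such a ranking always names some genes, and these are given as a description.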

How the data were processed

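The authors aligned single-end reads with STAR 2.0.4b and assigned reads with 1 alignment and 1 possible gene by featureCounts 1.4.5; the processing notes list mm9, but the coordinates in the files match GRCm38. They deposited raw counts of 41388 genes per sample, with CPM (deposited values of count over library total) and RPKM (the deposited CPM per kilobase of summed exon length). RPKM gave levels between genes, and counts gave all tests. Gene names and positions came from GENCODE M21, which matched 40340 identifiers (97.5%).

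In R 4.3.3, rRNA genes (355) and genes not above 1 CPM in at least 2 samples were left out, leaving 14533. Counts were TMM-normalized and tested with edgeR 4.0.16 (quasi-likelihood, no covariates, Benjamini-Hochberg adjustment), and this was tested on simulated data. Standard errors (SE) are |log2 fold change| divided by √F. Each sample is 1 library of 1 group. Chi-square per degree of freedom between counts was 17.7 to 52.6 over 15 pairs, so no library was repeated. Alternatives were DESeq2 1.42.0, limma 3.58.1 (voomWithQualityWeights without and with 2 surrogate variables from sva 3.50.0, the latter being the model of the study's methods), other normalizations and filters, a robust fit, a replicate block and leaving out each sample. Members and lists were chosen with earlier results of these data known. Named from the lists were the genes past an unadjusted p of 0.05 and the smallest p of each list, and for 2 members (smallest p, largest SD) the 3 most similar genes. No table used here held protein sequences, and promoters of *Ccnd1*, *Ccnd2*, *Ccne2* and *Cdkn1c* were not analysed here.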

Additional observations from a re-analysis of the deposited data

How the results depend on the processing

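Under all 15 alternatives 0 members and 0 genes of the pathway lists had an adjusted p of at most 0.05, as with the edgeR fit reported, and *Ccnd1*, *Ccnd3*, *Ccne1*, *Ccne2*, *Cdkn1b*, *Cdkn2c* and *Postn* kept their direction. The shares of all tested genes given above are those of the edgeR fit reported, and none is given for the alternatives. The counts below, of members and of list genes, can therefore not be set against all genes. The number of members at an unadjusted p of at most 0.05, reported as 1, was 4 without a filter on low counts, 2 with DESeq2, 3 with voomWithQualityWeights and 4 with its surrogate variables, and 0 to 3 with each sample left out. For the pathway lists, with 1 lower gene reported, it was 2 with DESeq2's size factors, 11 without a filter, 8 with DESeq2's test, 4 and 14 with voomWithQualityWeights without and with surrogate variables, 2 with the robust fit and 0 to 10 with each sample left out. Of higher genes, 2 were reported, with 5 and 4 in the voomWithQualityWeights fits, 3 with upper quartile normalization and with the replicate block, where *Foxo1* was added, and 1 to 3 with each sample left out. Over the 15 alternatives the unadjusted threshold was passed by *Cdkn1b* in 12, *Ccne1* in 6, *Ccnd3* in 3, *Ccnd1* and *Ccne2* in 2 each and the other tested members in 0. The log2 fold change of *Ccnd2* changed sign in the voomWithQualityWeights fits without (0.14) and with (0.021) surrogate variables. It also did so without Postn-/- replicate 2 (0.021) and without wt replicate 1 (0.20), and ran from −0.17 to 0.20 with each sample left out. So did *Cdkn2b* without Postn-/- replicate 2 (−0.13 to 0.37 with each left out), *Cdkn1c* without wt replicate 2 (−0.58 to 0.10) and *Cdkn2d* without wt replicate 1 (−0.50 to 0.072). The cause of these changes was not tested. Leaving out a sample moved 0 to 4 members in the order of levels and the mean share of *Ccnd2* among D-type cyclins between 92.5% and 93.2%. Coding transcript lengths, chosen after seeing the data, moved 3 members and gave a share of 86.0% against 92.9%.

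By their labels, same-numbered samples have only the number in common, and whether they share a litter or batch was not tested. Their deviations from the group means correlated across genes at 0.0824, 0.155 and 0.143 for replicates 1, 2 and 3, and every sample correlated best with its own number. With the replicate block 0 members passed the adjusted threshold and 1 the unadjusted one, *Cdkn1b*, at a log2 fold change of −0.40 (adjusted p = 0.603 from edgeR's test). Of the pathway lists, *Skp2* no longer passed the unadjusted threshold with the block (0.0500409). *Foxo1* (0.35, unadjusted p = 0.0221) and *Top2a* (−0.86, unadjusted p = 0.0347, named after its values were seen) then did, each with an adjusted p of 0.603 in edgeR's test. With 3 mice per genotype the intervals of the members' log2 fold changes are wide, and the depth limits only *Cdkn2a*.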

Other observations

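*Cdkn1a*, coding for p21, the CDK inhibitor that p53 induces, was chosen here after its values were seen. It was at 416, 528 and 786 CPM in Postn-/- replicates 1, 2 and 3 and at 358, 559 and 483 CPM in the wt replicates. Its highest sample, Postn-/- replicate 3, was also that of *Mdm2*, another p53 target, at 123, 208 and 278 CPM in Postn-/- and 141, 135 and 144 CPM in wt. The same library held the lowest value of *Ccne2*, *Cdkn1b*, *Cdkn2a*, *Cdkn2b* and *Cdkn2c* and the lowest sum of the S phase list, 420 CPM. The other members were lowest elsewhere. No share of all tested genes is given for this library, so these lows cannot be set against all genes. Their link to *Cdkn1a* and *Mdm2* was not tested. The genotypes overlapped for *Cdkn1a* and *Mdm2*, and their log2 fold changes were 0.30 and 0.53 (adjusted p = 0.770 and 0.717 from edgeR's test). Without Postn-/- replicate 3 they were 0.015 and 0.24, and *Cdkn1a* was at 0.15 without wt replicate 1 and at 0.49 without Postn-/- replicate 1.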
